A study of Homo sapiens with 8 samples.

Results

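The nuclear genes for subunits of the mitochondrial respiratory chain were examined in HaCaT cells, an established line of human keratinocytes. Members were chosen by symbol (NDUFA, NDUFB, NDUFC, NDUFS and NDUFV for complex I, SDHA to SDHD for complex II, UQCR genes and CYC1 for complex III, COX4 to COX8 subunits for complex IV, and ATP5F1, ATP5M and ATP5P genes for complex V), with assembly factors left out. This gave 83 of the 17131 genes in the expression table, 38 in complex I, 4 in complex II, 10 in complex III, 12 in complex IV and 19 in complex V. Of these, 80 had enough reads to be tested, among 12434 genes tested in all. The others, UQCRHL, ATP5MGL and ATP5MF-PTCD1, had at most 10 counts in any library. NDUFC2-KCTD14 and ATP5MF-PTCD1 are readthrough transcripts of a subunit gene and its neighbour, UQCRHL is a retrocopy of UQCRH and ATP5MGL a paralog of ATP5MG, so these 4 are not ordinary subunit genes.

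RNA of 8 cultures was sequenced, 4 in each group, and nothing in the sources used here says whether the 4 libraries of a group came from separate experiments, so p-values measure the spread between these libraries. All 8 received M5, a cocktail of 5 cytokines (oncostatin M, TNF-α, IL-1α, IL-17A and IL-22 at 10 ng/mL apiece) used to make keratinocytes resemble those of psoriasis, and the compared agent was OTS514, an inhibitor of the kinase TOPK, given at 10 nM for 12 h before and then together with M5 for 24 h. The libraries titled M5_O5 read as M5 with OTS514, but their treatment field says that they were untreated and the field of the M5 libraries names the TOPK inhibitor. Groups are therefore named by title and every direction is M5_O5 against M5, with no statement on which group received the inhibitor. HaCaT is a single immortalised line grown without other skin cells.

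The respiratory chain passes electrons from NADH, through complex I, or from succinate, through complex II, to ubiquinone, complex III, cytochrome c and complex IV, which reduces oxygen. Complexes I, III and IV pump protons across the inner mitochondrial membrane, and complex V, the ATP synthase, uses the returning protons to make ATP. Complex II is built from nuclear-encoded proteins, whereas the other complexes combine nuclear-encoded subunits with a few encoded by mitochondrial DNA. The 13 subunits encoded by mitochondrial DNA were not analysed here.

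Total counts ranged from 13708055 to 16922693 per library, with the smallest total in M5 replicate 1. All 11 keratinocyte markers were detected, at summed levels of 21800 to 24600 CPM (counts scaled by library size and TMM) in M5_O5 and 26600 to 30600 CPM in M5. Of the 11, 7 passed as lower in M5_O5, beside 17.6% of all genes tested. Markers of fibroblasts, melanocytes, leukocytes, endothelium and muscle were at or near 0, apart from COL1A1 (32.8 CPM in M5_O5 and 48.8 in M5) and CD68 (54.8 and 74.9 CPM). All 20 genes of a G2/M list passed as higher in M5_O5, beside 19.5% of all genes tested. Their summed levels were 353 to 373 CPM against 133 to 281 CPM. The 281 CPM belonged to M5 replicate 1, which stood apart from the other M5 libraries (133 to 147 CPM). The part of these differences in the results on the subunits was not tested.

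Of the 80 members tested, 14 passed as higher in M5_O5 and 2 as lower, and 64 did not pass (edgeR quasi-likelihood test, Benjamini-Hochberg adjusted p under 0.05 over all genes). The 14 members were 17.5% of those tested, beside 19.5% of all genes that passed as higher, and the 2 lower members stood beside 17.6% of all genes that passed as lower. Log2 fold changes of the members ran from -0.37 to 1.36 with a median of 0.11, against a median of 0.01 for all genes tested. Of the 80 members 60 were above 0, beside 6437 of the 12434 genes tested, and this difference was not tested. Only the readthrough NDUFC2-KCTD14 passed with at least a 2-fold change (2.87% of all genes did so in that direction) and no member did so as lower (0.33% of all genes). In 17 of the 80 members all 4 M5_O5 libraries lay above all 4 M5 libraries, beside 17.8% of all genes. In 2 of the 80 all lay below, beside 15.8% of all genes. The share of members that passed as higher was thus near that of all genes. The share that passed as lower, 2 of 80, was well below the 17.6% of all genes, and this difference was not tested. In bulk RNA, fewer cells carrying a transcript and less of it per cell cannot be told apart.

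The changes were small and measured closely. Standard errors of the log2 fold changes had a median of 0.083, and the 95% interval of the change lay within 2-fold in either direction for 79 of the 80 members and within 1.5-fold for 74. The members whose interval reached past 1.5-fold were NDUFC2-KCTD14, ATP5MC1, NDUFB8, NDUFA7, NDUFA5 and NDUFB2, all on the higher side. Summed over all members, the level was 3780 ± 105 CPM in M5_O5 and 3540 ± 90.6 CPM in M5 (SD, n = 4 libraries each), and the lowest M5_O5 sum, 3670 CPM, lay above the highest M5 sum, 3630 CPM. By complex, the ratio of the summed CPM in M5_O5 to that in M5 was 1.09 for complex I, 1.02 for complex II, 1.05 for complex III, 0.996 for complex IV and 1.13 for complex V.

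**Figure D1:**
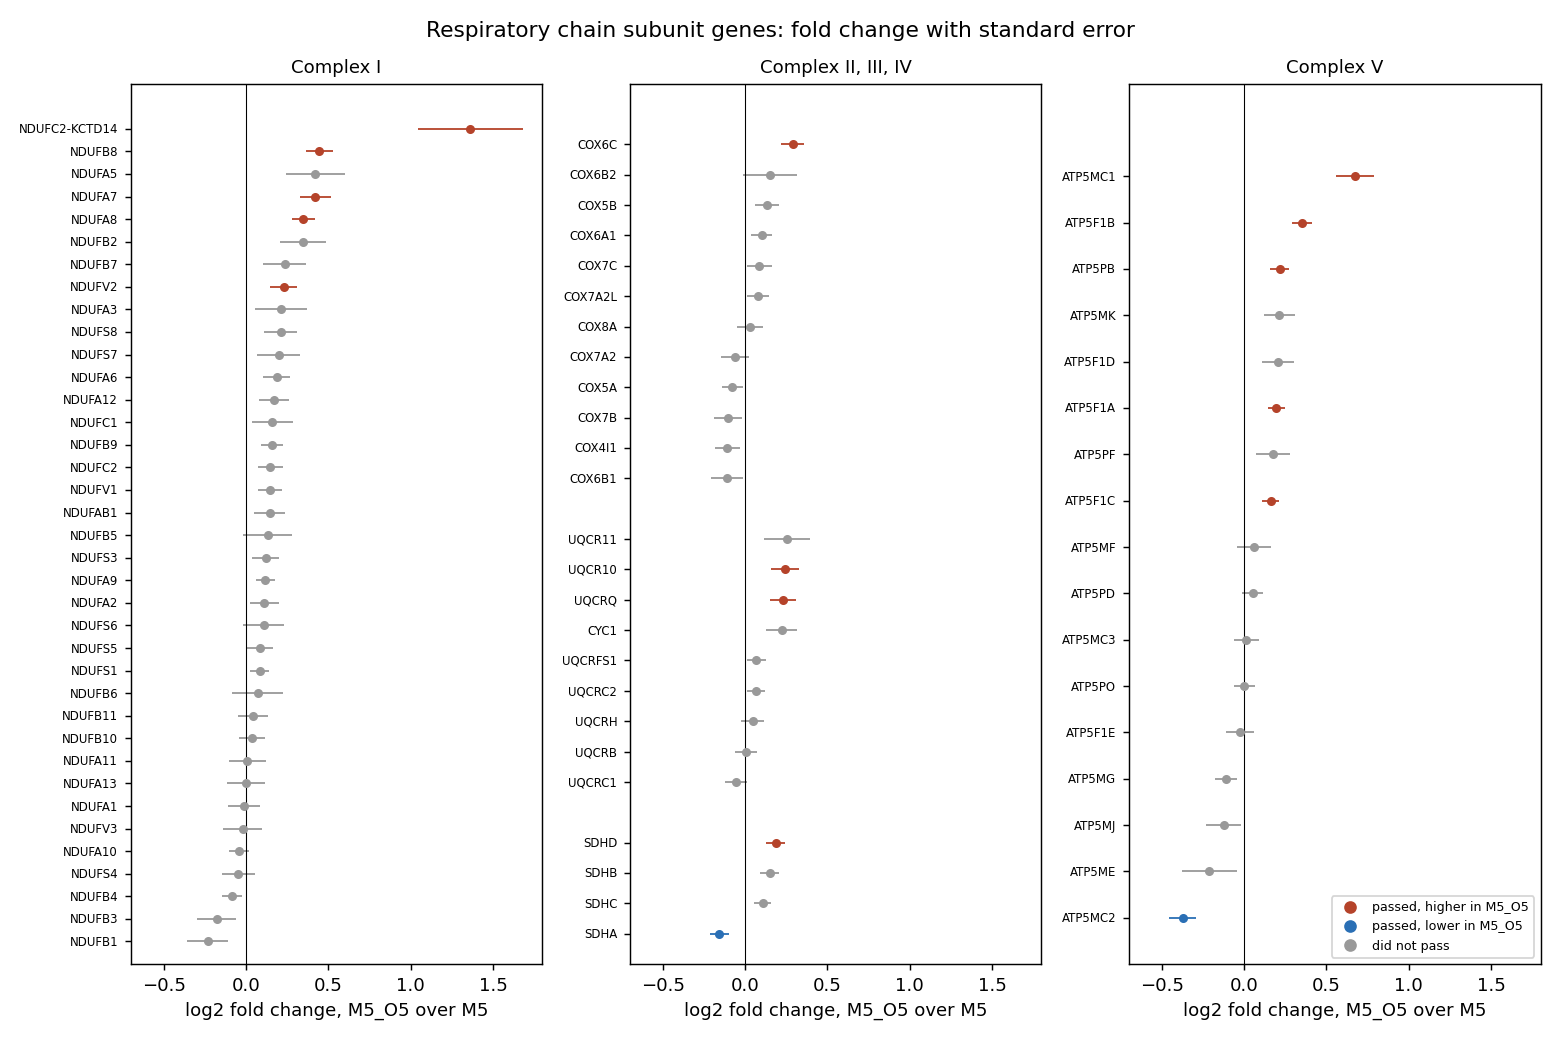
Log2 fold change (M5_O5 over M5, x axis) with its standard error for 79 of the 80 members tested, by complex, in red where a member passed as higher, in blue where it passed as lower and in grey where it did not pass. Most points sit just right of 0, with NDUFC2-KCTD14 (1.36) and ATP5MC1 (0.67) farthest to the right and ATP5MC2 (-0.37) farthest to the left.

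Libraries of a group differed in these genes. M5_O5 replicate 1 held the highest value of its group in 41 of 80 members and M5_O5 replicate 2 the lowest in 39. M5 replicate 1 held the lowest of its group in 38. The median log2 ratios of these libraries to their group's other libraries were 0.094, -0.1 and -0.071 over the members. Over the shortest 25% of tested genes they were 0.037, -0.028 and -0.059, and over all tested genes 0.002, -0.006 and 0.016. Without both first replicates, 15 members passed as higher and 3 as lower, beside 23.3% and 21.6% of all genes in that fit, and the median log2 fold change was 0.06. Transcripts of the members are short, 64 of 80 lying in the shortest 25% of tested genes, where the median log2 fold change over all genes was 0.08, 23.3% passed as higher and 11.1% as lower. With a trend over length removed from all genes, 11 members passed as higher and 4 as lower, beside 17.6% and 18.4% of all genes.

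Complex V held 5 of the 14 higher members and 1 of the 2 lower ones, out of 17 tested, with a median log2 fold change of 0.06. Its higher members were 29.4% of those tested, beside 19.5% of all genes as higher and 17.6% as lower. The difference from all genes was not tested. Of the catalytic head, ATP5F1B, ATP5F1A and ATP5F1C, the β, α and γ subunits, passed, as did ATP5PB, subunit b of the stalk that holds the head still. ATP5F1B, which carries the catalytic sites, measured 333, 365, 382 and 326 CPM in M5_O5 replicates 1 to 4 and 268, 286, 272 and 276 CPM in M5 replicates 1 to 4. Its groups were clear of each other, and the log2 fold change was 0.35 with a standard error of 0.060 (edgeR adjusted p = 0.000459). ATP5F1A measured 262, 258, 253 and 272 CPM in M5_O5 and 240, 226, 222 and 225 CPM in M5, a log2 fold change of 0.20 (edgeR adjusted p = 0.00779). The groups of ATP5F1A did not overlap either, but with NM transcripts alone its adjusted p was 0.361 at a log2 fold change of 0.16. ATP5PB rose by 0.22 and ATP5F1C by 0.16 on the log2 scale (edgeR adjusted p = 0.0104 and 0.0316). The call on ATP5PB was kept in all 8 fits that left out 1 library and that on ATP5F1C in 3 of them, and with the length trend removed the change of ATP5F1C was 0.05 (edgeR adjusted p = 0.509). The peripheral stalk subunit ATP5PO, which joins the stalk to the head, had a log2 fold change of 0.00, with a 95% interval from -0.13 to 0.14. The other head subunits did not pass, with log2 fold changes of 0.21 for ATP5F1D (δ) and -0.02 for ATP5F1E (ε).

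The genes ATP5MC1, ATP5MC2 and ATP5MC3 went different ways. They encode precursors that differ in their import sequences and yield the same mature subunit c, the protein of the rotating ring in the membrane. The sequence just before each gene's start is shown for the members that passed in opposite directions, 250 bases each from RefSeq's GRCh38.p14 table, 5′ to 3′ on the gene's strand, with the NRF1 core (GCATGCGC on either strand) in capitals where present.
ATP5MC1, chr17:48892537-48892786, plus strand: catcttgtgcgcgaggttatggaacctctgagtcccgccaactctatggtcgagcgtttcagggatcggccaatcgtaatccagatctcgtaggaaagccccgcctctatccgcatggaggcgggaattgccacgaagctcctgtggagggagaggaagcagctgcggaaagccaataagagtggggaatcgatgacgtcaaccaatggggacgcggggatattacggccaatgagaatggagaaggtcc
ATP5MC2, chr12:53676331-53676580, minus strand, before the outermost of 3 starts in the table: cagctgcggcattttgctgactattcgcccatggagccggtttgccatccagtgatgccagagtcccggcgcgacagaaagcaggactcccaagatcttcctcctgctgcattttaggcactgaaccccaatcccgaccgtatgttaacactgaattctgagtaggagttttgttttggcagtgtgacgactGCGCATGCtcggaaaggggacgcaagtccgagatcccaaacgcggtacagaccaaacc
The ATP5MC2 window held 1 NRF1 core, at position -58 counted from the start, and the ATP5MC1 window held none of the 3 motifs searched, which says only that these letters are not in this window.

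ATP5MC1 measured 13.6, 10.9, 13.3 and 10.5 CPM in M5_O5 replicates 1 to 4 and 7.45, 8.49, 6.78 and 7.54 CPM in M5 replicates 1 to 4. Every M5_O5 library was above every M5 library, and ATP5MC1 rose 1.6-fold (log2 fold change 0.67, standard error 0.12, edgeR adjusted p = 0.00051). ATP5MC2 measured 23.7, 25.7, 27.5 and 27.3 CPM in M5_O5 and 29.8, 37.1, 36.1 and 31.8 CPM in M5. Here every M5_O5 library was below every M5 library, and ATP5MC2 fell to 0.77-fold (log2 fold change -0.37, standard error 0.082, edgeR adjusted p = 0.00301). ATP5MC3 measured 46.5 to 56.3 CPM in M5_O5 and 46.5 to 57.1 CPM in M5. The groups of ATP5MC3 overlapped fully, with a log2 fold change of 0.01 and a 95% interval from -0.15 to 0.18. Both calls, on ATP5MC1 and on ATP5MC2, were kept in all 8 fits that left out 1 library.

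The ratio of ATP5MC1 to ATP5MC2 within a library does not depend on how libraries are scaled. It was 0.575, 0.422, 0.485 and 0.385 in M5_O5 replicates 1 to 4 and 0.25, 0.229, 0.188 and 0.237 in M5 replicates 1 to 4. The mean was 0.467 ± 0.0832 against 0.226 ± 0.0268 (SD, n = 4 each), a separation that follows from the opposite calls on the 2 genes. A two-sided exact permutation test over the 8 libraries gave p = 0.0286, the smallest it can give. Since the separation follows from those calls, the test adds no support to them. Summed, the 3 genes measured 89.9 ± 5.46 CPM in M5_O5 and 92.5 ± 7.27 CPM in M5, a difference within the spread between replicates. On the scale of TPM, which divides by transcript length, ATP5MC1 made up 30.4% ± 2.78 of the subunit c transcripts in M5_O5 and 18.3% ± 1.64 in M5. ATP5MC2 made up 54.4% ± 3.97 and 67.4% ± 2.28, and ATP5MC3 15.2% ± 1.53 and 14.4% ± 1.01. The order of the genes depends on the scale. By reads, ATP5MC1 held 13.4% in M5_O5 and 8.18% in M5, ATP5MC2 29.1% and 36.4%, and ATP5MC3 57.5% and 55.4%. These genes have processed pseudogenes, and how the authors' counting shared reads with them is not given in the sources used here.

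**Figure D2:**
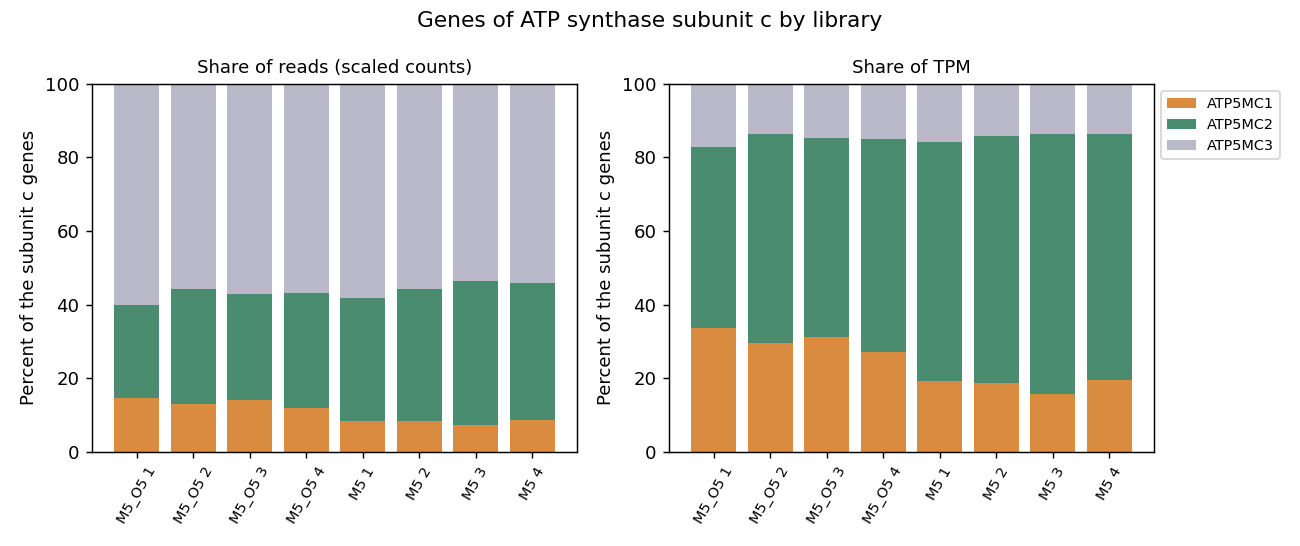
Percent of the subunit c genes (y axis) taken by ATP5MC1, ATP5MC2 and ATP5MC3 in each of the 8 libraries (x axis), as reads on the left and as TPM on the right. ATP5MC1 takes 27.1% to 33.7% of TPM in the M5_O5 libraries and 15.8% to 19.4% in the M5 libraries.

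In complex II, SDHA went against its partners. SDHA is the flavoprotein that oxidises succinate, SDHB carries the iron-sulfur clusters, and SDHC and SDHD anchor the complex in the membrane. SDHA measured 115, 119, 119 and 111 CPM in M5_O5 replicates 1 to 4 and 121, 140, 129 and 127 CPM in M5 replicates 1 to 4, so the groups did not overlap. SDHA passed as lower with a log2 fold change of -0.16 (standard error 0.057, edgeR adjusted p = 0.0424), a call kept in 1 of the 8 fits that left out 1 library. With the expression trend removed its change was -0.05 (edgeR adjusted p = 0.576). SDHD measured 69.1, 67.1, 63.8 and 63.9 CPM in M5_O5 and 59.7, 54.7, 59.9 and 57.9 CPM in M5. Its groups were apart as well, and SDHD rose by 0.19 on the log2 scale (edgeR adjusted p = 0.0196), a call kept in 5 of the 8 such fits. The groups of SDHB and SDHC did not overlap, with log2 fold changes of 0.15 and 0.11, but neither passed (edgeR adjusted p = 0.0579 and 0.123). The ratio of SDHA to the mean of SDHB, SDHC and SDHD, looked at after the values were seen and therefore not tested, was 1.5 to 1.63 in the M5_O5 libraries and 1.75 to 2.15 in the M5 libraries.

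In complex I, 5 of 38 members passed as higher and none as lower by edgeR, with a median log2 fold change of 0.13. Changes above 0 were seen in 30 of 38, beside 6437 of the 12434 genes tested. The higher members were 13.2% of those tested, beside 19.5% of all genes as higher and 17.6% as lower. The members that passed, besides the readthrough, were NDUFB8, NDUFA7, NDUFA8 and NDUFV2. The first 3 are accessory subunits, which surround the catalytic core, and NDUFV2 is a core subunit of the arm that takes electrons from NADH. NDUFB8 measured 57.1, 46.2, 46.4 and 46.6 CPM in M5_O5 and 34.3, 40.2, 34 and 35.7 CPM in M5. M5_O5 replicate 1 stood above the rest of its group, and without both first replicates the log2 fold change was 0.34 in place of 0.45 (edgeR adjusted p = 0.000464 and 0.000833). NDUFA8 measured 38.9, 36.5, 37 and 36.7 CPM in M5_O5 and 29.6, 32.6, 28 and 27 CPM in M5. No library of NDUFA8 crossed between groups, and the log2 fold change was 0.35 (edgeR adjusted p = 0.00157). NDUFA7 rose by 0.42 on the log2 scale (edgeR adjusted p = 0.00296), and the groups of NDUFV2 overlapped at a log2 fold change of 0.23 (edgeR adjusted p = 0.0459), a call kept in 3 of the 8 fits that left out 1 library.

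The other core subunits of complex I named here did not pass. NDUFS1, the largest iron-sulfur protein of the complex, had a log2 fold change of 0.08 with a 95% interval from -0.04 to 0.21. For NDUFS3 and NDUFV1, the subunit that binds NADH, the log2 fold changes were 0.12 and 0.15.

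The readthrough NDUFC2-KCTD14 had the largest fold change of the members at the lowest level. It held 31, 20, 53 and 28 counts in M5_O5 replicates 1 to 4 and 11, 10, 14 and 10 counts in M5 replicates 1 to 4, with a log2 fold change of 1.36 (95% interval 0.68 to 2.04, edgeR adjusted p = 0.00413). The groups did not overlap. NDUFC2 itself, an accessory subunit at 33.2 to 44.9 CPM, shares sequence with the readthrough and did not pass, at a log2 fold change of 0.15. How reads were split between them is not given in the sources used here, so the value of the readthrough is uncertain.

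**Figure D3:**
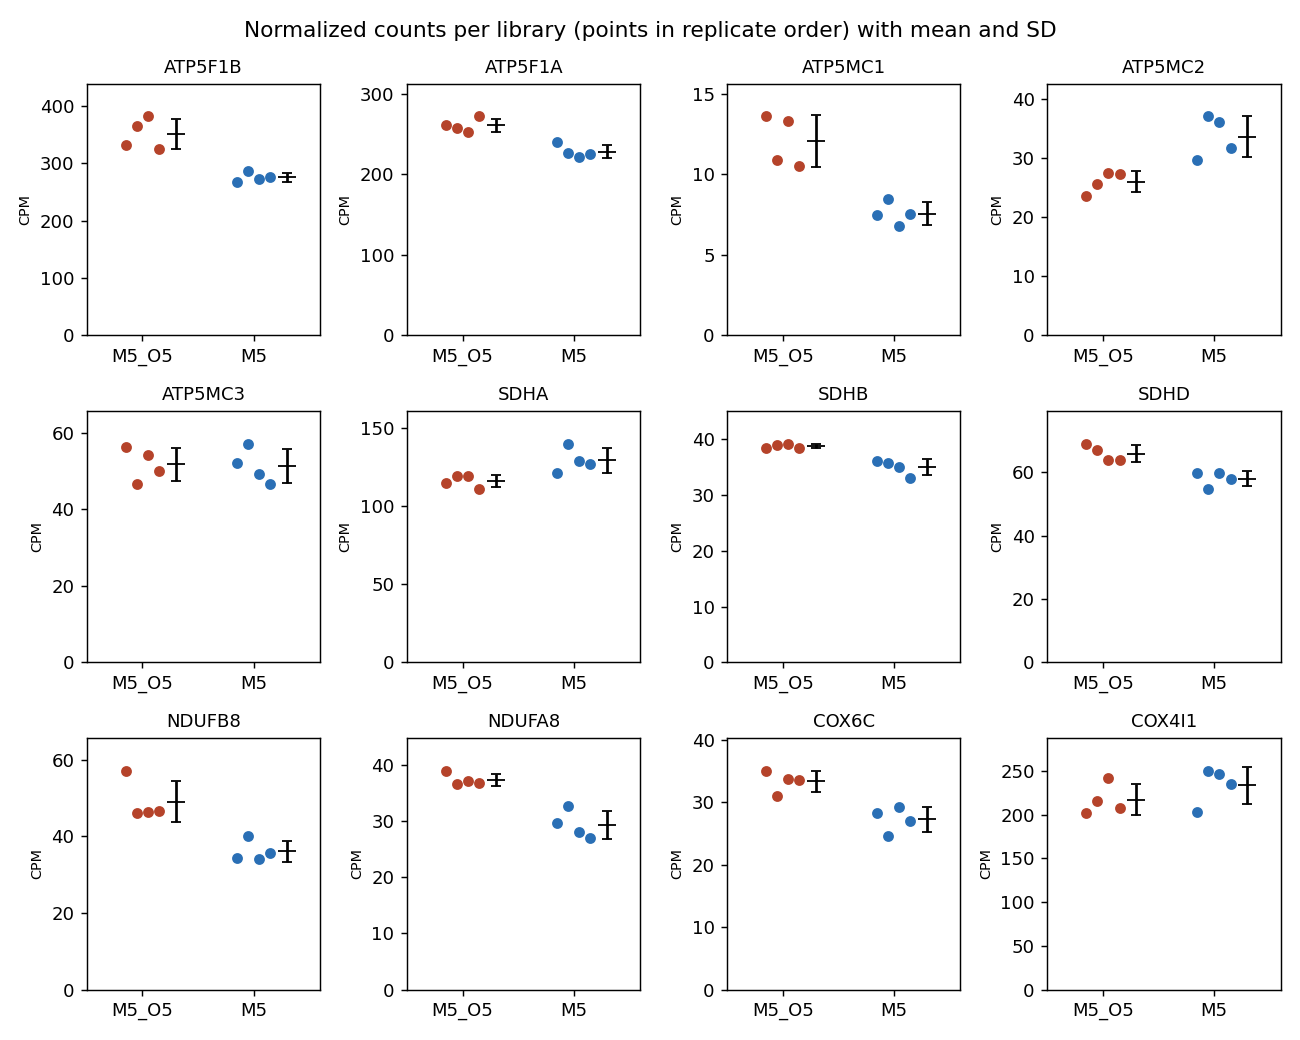
CPM (y axis, from 0) of 12 members in the 4 M5_O5 and 4 M5 libraries, as points in replicate order with the mean and SD beside them. ATP5MC1 and ATP5F1B lie higher in every M5_O5 library, ATP5MC2 and SDHA lower, and ATP5MC3 and COX4I1 overlap between groups.

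Complex III had 2 of 9 tested members pass as higher and none as lower by edgeR, with a median log2 fold change of 0.07. The 2 were 22.2% of those tested, beside 19.5% of all genes as higher and 17.6% as lower. The catalytic genes were not among the 2. CYC1, cytochrome c1, measured 67.6, 49.4, 52.9 and 46.9 CPM in M5_O5 and 46.2, 47.7, 46.9 and 44.8 CPM in M5. M5_O5 replicate 1 was far above the others in CYC1, and the log2 fold change of 0.22 (edgeR adjusted p = 0.0761) was 0.10 without both first replicates. UQCRFS1, the Rieske iron-sulfur protein, and the core proteins UQCRC1 and UQCRC2 had log2 fold changes of 0.07, -0.06 and 0.07. The small subunits UQCR10 and UQCRQ passed, at log2 fold changes of 0.24 and 0.23 (edgeR adjusted p = 0.0364 for both), with groups that did not overlap. These calls were kept in 3 and 1 of the 8 fits that left out 1 library. UQCRH measured 41.5 to 51.7 CPM and did not pass, while its retrocopy UQCRHL had at most 2 counts in any library.

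Complex IV had a single member pass, COX6C, of 12 tested (8.33%, beside 19.5% of all genes as higher and 17.6% as lower), and a median log2 fold change of 0.05. COX6C, a small membrane subunit, measured 35, 30.9, 33.7 and 33.6 CPM in M5_O5 and 28.3, 24.6, 29.2 and 27 CPM in M5. The groups were apart, with a log2 fold change of 0.29 (standard error 0.072, edgeR adjusted p = 0.00625) that passed in all 8 fits that left out 1 library. COX4I1, a regulatory subunit, measured 202, 216, 242 and 208 CPM in M5_O5 and 203, 250, 246 and 235 CPM in M5. Its groups overlapped, and the 95% interval of the log2 fold change ran from -0.26 to 0.05. COX5A and COX5B had log2 fold changes of -0.08 and 0.13 and did not pass. Among subunits with tissue isoforms, COX6B1 measured 23.2 to 33.4 CPM and its testis-type relative COX6B2 3.55 to 6.03 CPM, and neither passed. Divided by transcript length, COX6B1 stood at 253 ± 16.2 TPM in M5 and COX6B2 at 3.98 ± 0.673 TPM (SD, n = 4). COX6A1, COX7A2, COX7A2L and COX8A did not pass either, at log2 fold changes from -0.06 to 0.10. The isoforms COX4I2, COX6A2, COX7A1, COX7B2 and COX8C were not analysed here.

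COXFA4, long known as NDUFA4 and now counted with complex IV, is not taken by the rule on symbols. It measured 60, 57.5, 56.8 and 60.4 CPM in M5_O5 and 47.5, 48.1, 46.7 and 49.3 CPM in M5. The groups were apart, with a log2 fold change of 0.29 (standard error 0.054, edgeR adjusted p = 0.000893). Its paralog COXFA4L2 had at most 2 counts in any library.

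Levels of different genes were compared as TPM, since CPM grows with transcript length. In the M5 libraries the highest members were COX4I1 at 784 ± 23.3 TPM and COX6A1 at 545 ± 19.8 TPM, followed by COX8A at 459 ± 20.8 and COX7A2 at 415 ± 10.8 TPM (SD, n = 4). By TPM, most complex IV subunits stood above the core genes of complex II. There SDHC was at 123 ± 9.62, SDHD at 85.6 ± 8.38, SDHA at 80.3 ± 2.58 and SDHB at 75.4 ± 6.61 TPM. The last 3 of these were within their spread of each other. This order depends on the scale. In CPM, SDHA (129) and SDHC (111) in M5 stood above COX6A1 (80) and COX8A (54.9) and below COX4I1 (233). In the ATP synthase head, ATP5F1B stood at 287 ± 13.3 TPM in M5, above ATP5F1A at 185 ± 18.9 and ATP5F1C at 173 ± 15.4 TPM, which did not differ beyond their spread. At the low end were NDUFV3 at 4.48 ± 0.915 and COX6B2 at 3.98 ± 0.673 TPM, and the readthrough at 0.688 ± 0.142 TPM. The summed TPM of all members was 11500 ± 323 in M5_O5 and 10100 ± 292 in M5. On that scale all genes shifted as well: on log2(TPM + 1), compared with limma, the median of all genes was 0.12 and that of the members 0.23, and 37 members passed as higher, beside 26.2% of all genes.

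**Figure D4:**
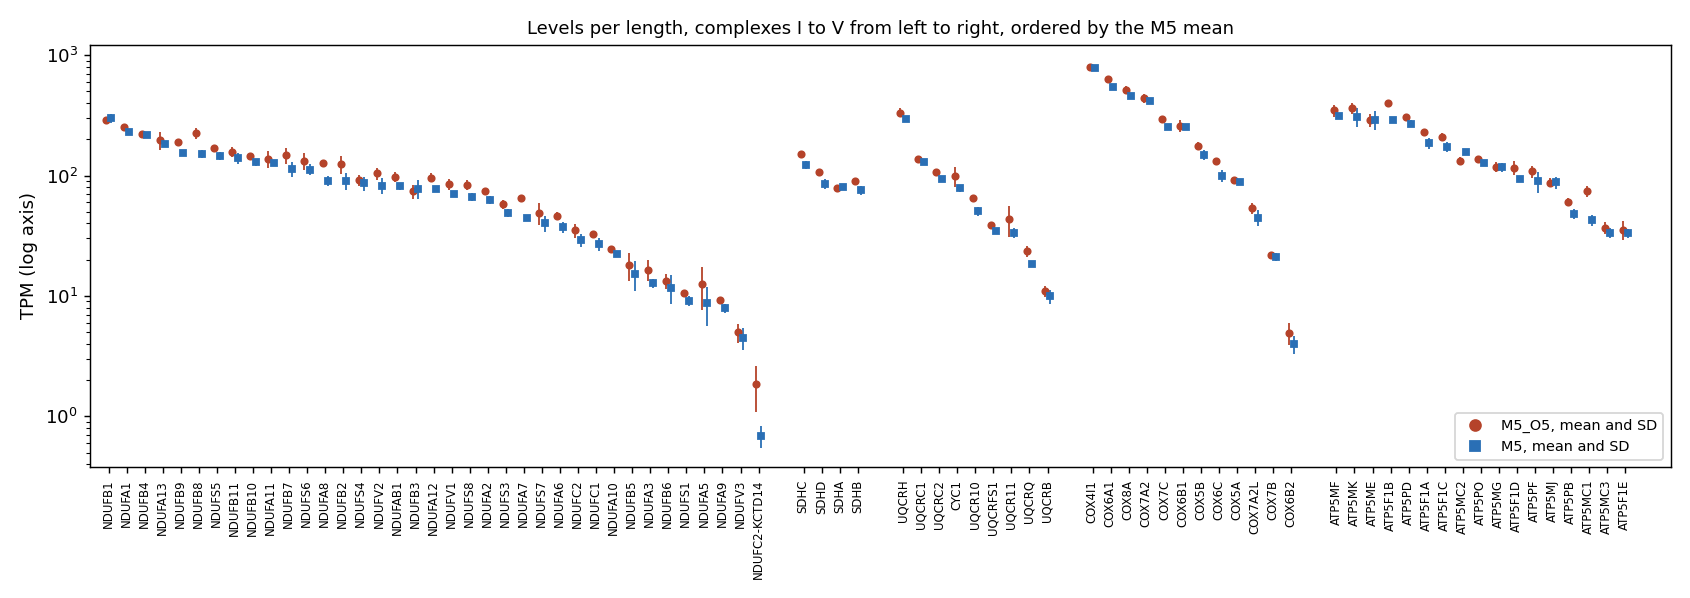
Mean TPM with SD (y axis, log scale) of 79 of the 80 tested members in M5_O5 (circles) and M5 (squares), from complex I on the left to complex V on the right and ordered within each by the M5 mean. COX4I1 is at the top (784 TPM in M5), and the readthrough NDUFC2-KCTD14 at the bottom (0.688 TPM).

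Genes that build or feed the chain were counted beside its subunits. Of all genes tested, 19.5% passed as higher and 17.6% as lower. Of 16 complex I assembly factors 6 passed as higher and none as lower by edgeR, with a median log2 fold change of 0.19. NDUFAF4, NDUFAF2 and NDUFAF8 had the largest changes, at 1.10, 0.88 and 0.57. NDUFAF4 stood at 2.67, 2.01, 2.13 and 3.15 CPM in M5_O5 and 2.55, 0.98, 0.592 and 0.623 CPM in M5, so that M5 replicate 1 lay among the M5_O5 libraries. Of 12 assembly factors of complexes II and III, 4 passed as higher, among them UQCC5 (0.74), BCS1L, which inserts the Rieske protein (0.47), and TTC19 (0.29). On the list drawn up for complex IV assembly, 8 of 26 genes passed as higher, with COA7 (0.56), FASTKD1 (0.39) and COX14 (0.38) farthest. The groups of FASTKD1 overlapped, and its place on the list does not show that it acts in complex IV assembly. From the same list 2 passed as lower, COX15, an enzyme of haem A synthesis (-0.43), and COX20, a chaperone of the subunit COX2 (-0.29). For complex V, 2 of 6 passed as higher, the assembly factor TMEM70 (0.32) and ATP5IF1, the inhibitor of ATP hydrolysis (0.27).

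Of 16 genes for cytochrome c and for electron feeding into ubiquinone, 7 passed as higher and none as lower by edgeR, with a median log2 fold change of 0.28. COQ8A and COQ3, of ubiquinone synthesis, and DHODH, the pyrimidine synthesis enzyme that reduces ubiquinone, had changes of 1.05, 0.86 and 0.86. CYCS, cytochrome c itself, measured 155, 108, 114 and 137 CPM in M5_O5 and 112, 69.7, 82 and 83.9 CPM in M5, a log2 fold change of 0.56 (edgeR adjusted p = 0.00404), with M5 replicate 1 above the lowest M5_O5 library. Of 18 genes of pyruvate dehydrogenase and the citric acid cycle, 7 passed as higher and 1 as lower. FH, fumarase, which acts next after complex II, measured 35, 39.2, 40.1 and 38.7 CPM in M5_O5 and 25.9, 25, 24 and 23.9 CPM in M5. Its log2 fold change was 0.63 (edgeR adjusted p = 1.19e-05), beside 0.38 for DLAT, 0.36 for SUCLG1 and -0.26 for DLST.

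Mitochondrial ribosomal proteins, of the ribosome that makes the subunits encoded by mitochondrial DNA, passed as higher in 26 of 77 genes (33.8%) and as lower in 1, with a median log2 fold change of 0.19. MRPL40, MRPL4 and MRPL24 had the largest changes, at 0.60, 0.59 and 0.58, and MRPS6 was the lower one at -0.37. Cytosolic ribosomal proteins, which are short and abundant, passed as higher in 3 of 81 genes and as lower in 5, with a median of -0.04. RPSA (0.30) and RPL41 (-0.34) lay at the ends. Beside these lists stand the 17.5% of subunit genes and the 19.5% of all genes that passed as higher, and no difference between lists was tested.

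**Figure D5:**
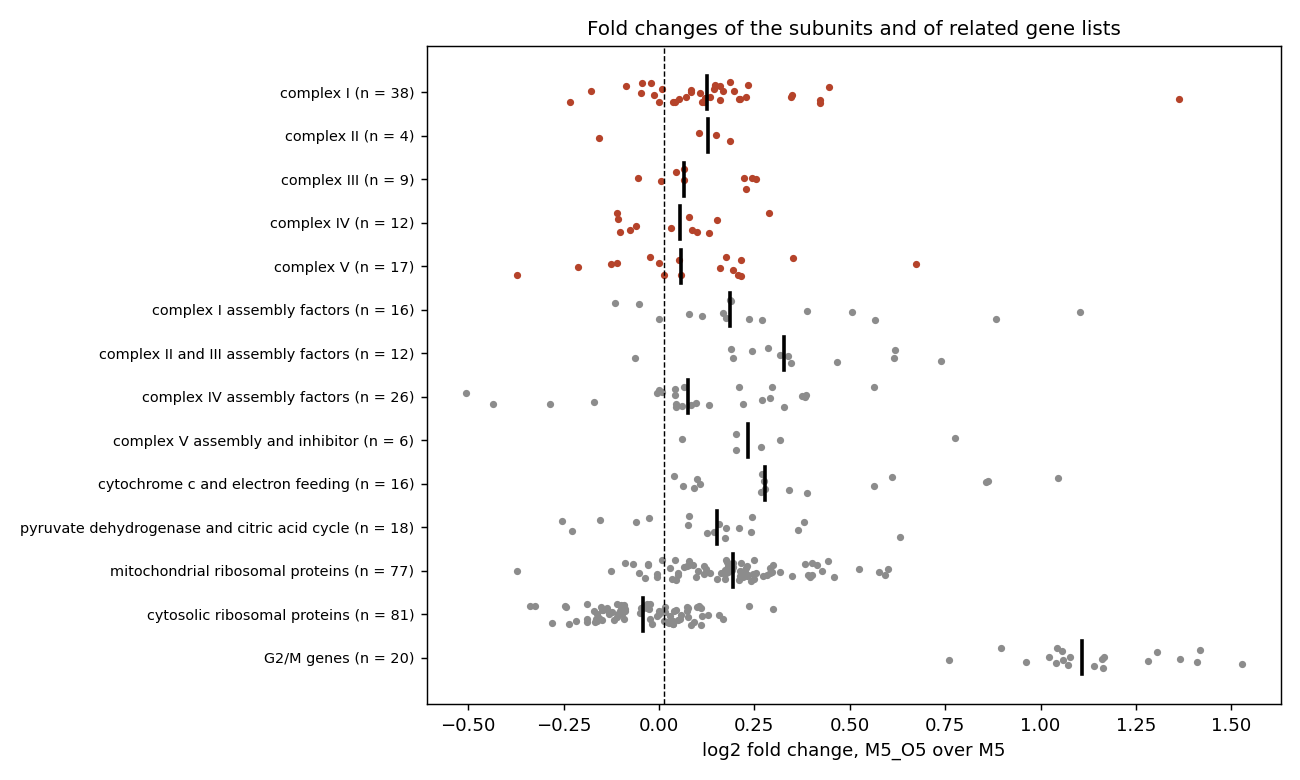
Log2 fold changes (M5_O5 over M5, x axis) of single tested genes in the 5 complexes (red) and in the related gene lists (grey), with a black bar at each list's median and a dashed line at the median of all genes tested (0.01). The medians of the complexes lie between 0.05 and 0.13, that of the mitochondrial ribosomal proteins at 0.19 and that of the G2/M genes at 1.11.

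Of 13 tested regulators of mitochondrial biogenesis 2 passed as higher and 2 as lower (19.5% and 17.6% of all genes), with a median log2 fold change of 0.01. PPARGC1B, a coactivator, and TWNK, the mitochondrial DNA helicase, rose by 0.71 and 0.40 on the log2 scale, and POLG, the mitochondrial DNA polymerase, and YY1 had changes of -0.31 and -0.21. YY1 measured 107 to 114 CPM in M5_O5 and 126 to 131 CPM in M5. NRF1 and GABPA, transcription factors known for binding promoters of respiratory genes, did not pass, both at -0.21 (edgeR adjusted p = 0.0518 and 0.0855).

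Letters of these factors' motifs were searched on both strands of windows of 300 bases, 250 before and 50 after a start, in RefSeq's GRCh38.p14 table, which held 80 windows for 67 of the 83 members. The NRF1 core GCATGCGC stood in 18.8% of member windows, 4.62% of the windows of all tested genes and 3.05% of all windows. The ETS core CCGGAAG, which GABPA binds, stood in 27.5%, 17.1% and 10.3%, and the YY1 letters AAGATGGCG in 12.5%, 3.42% and 1.75%. Among members with a window, the NRF1 core was found in 3 of the 12 that passed as higher and in 11 of the other 55, the ETS core in 3 and 18, and the YY1 letters in 2 and 7. These are matches of letters and were not tested.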

How the data were processed

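RNA sequencing of 8 HaCaT libraries was analysed. Per the methods, the authors mapped filtered reads with HISAT2, took counts with StringTie and deposited for each of 86639 RefSeq transcripts an estimated count, TPM and FPKM. The submitters' processing notes also name Bowtie2 2.2.5, RSEM 1.2.8 and the mouse build mm10, although the transcripts are human, and the human build is not given in the sources used here. The deposited estimated counts were not normalized, deposited TPM sums to the same total in every library, and deposited FPKM is per transcript length and library size. Group averages by the authors were not used.

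Estimated counts (53.8% of transcript values fractional) were summed per Entrez gene and rounded. RefSeq's GRCh38.p14 gene table gave the symbols, and 59 genes had none. Genes were filtered with filterByExpr, scaled by TMM and compared with edgeR 4.0.16 (R 4.3.3), quasi-likelihood test, Benjamini-Hochberg adjustment over all 12434 genes tested, threshold 0.05 and no fold threshold. The biological coefficient of variation was 7.42%. Per-length levels are TPM summed per gene, and transcript length was read as counts per FPKM. Scripts were tested on simulated data. Replicates of a group differed beyond counting noise, so all 8 libraries were counted.

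Members and gene lists were chosen with earlier results of these data known. Members named with values were core subunits, isoform pairs, and the 6 largest and 6 smallest log2 fold changes among members that passed with a mean of at least 1 CPM. From each list up to 3 genes per direction were named. COX6C, UQCR10, UQCRQ, NDUFC2, NDUFV3, NDUFA5, NDUFA6, NDUFB1, NDUFB2, ATP5F1D, ATP5F1E, CYCS, NRF1, GABPA and COXFA4 were named after their values were seen. As alternatives, DESeq2 1.42.0, further scalings and filters, limma 3.58.1 on log2(TPM + 1) and log2(TPM + 0.1), subsets of transcripts, removal of trends over expression or length, a block on replicate number and fits without 1 library at a time were run. Leaving out both first replicates was added after the data were seen. One tested member is counted in the totals but its values are not reported here.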

Additional observations from a re-analysis of the deposited data

Results flagged for a closer look

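Of 80 groups of 4 libraries checked for a single library far from its others, 2 were flagged, where chance gives about 1 in 20, or 4. The 80 groups do not cover both groups of every member tested, so other outlying libraries can exist. NDUFS6, for one, was not flagged at 18 CPM in M5 replicate 3 and 14 to 14.2 CPM in the other M5 libraries. NDUFB8, an accessory subunit of complex I, was at 57.1 CPM in M5_O5 replicate 1 and at 46.2 to 46.6 CPM in the other M5_O5 libraries. NDUFS3, a core subunit of complex I, was at 20.5 CPM in M5 replicate 3 and at 18 to 18.2 CPM in the other M5 libraries.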

How the results depend on the processing

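No median and no member that passed turned its direction under any setting run, while members that did not pass could, as COX4I1 did (log2 fold change -0.11, and 0.01 with library size alone). DESeq2, RLE scaling, both subsets of transcripts, the trend removals and the fits without 1 library gave 10 to 17 members higher in M5_O5, beside 14 in the report. Scaling moved the count most: with library size alone, which put the median of all genes at 0.128, 38 members passed as higher and 1 as lower (31% and 8.11% of all genes), with medians of 0.223 over all members and 0.242, 0.243, 0.183, 0.171 and 0.179 for complexes I to V. With limma on log2(TPM + 1), 37 passed as higher and 1 as lower (26.2% and 6.12% of all genes), with medians of 0.231 and of 0.237, 0.281, 0.188, 0.185 and 0.176, and on log2(TPM + 0.1) 37 and 1 (26.3% and 6.18%), with medians of 0.239 and of 0.246, 0.283, 0.191, 0.186 and 0.177. Between 52 and 63 members lay above the median of all genes of the same setting in every setting with a fit.

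The lower count was 1 with no filter, with at least 10 counts in every library and with NM transcripts only, where SDHA did not pass. Of all genes, 12.9%, 17.6% and 12.7% passed as lower there. The lower count was 4 with the length trend removed (18.4% of all genes) and 1 to 3 without 1 library (13.4% to 19.9% of all genes). The median of complex V was 0.158 with no filter, those of complexes II and III 0.183 and 0.156 with the expression trend removed, and that of complex II 0.034 with the length trend removed. With a 2-fold threshold 1 member passed as higher and 0 as lower, and at an unadjusted p 21 and 2, beside 24.3% and 21.8% of all genes. SDHA did not pass either with library size alone (-0.04), with limma on log2(TPM + 1) (-0.03) or log2(TPM + 0.1) (-0.03), or with the expression trend removed (-0.05), where NDUFB1 passed as lower. ATP5F1C did not pass with no filter (edgeR adjusted p = 0.0547). NDUFA6 had 254 to 378 counts per library, of which 4 to 36 lay on first placements of its transcripts; without further placements its log2 fold change was 0.96 in place of 0.19. Over 35 named members and 21 settings, 652 of 735 comparisons kept their side of the threshold. The cause of these shifts was not tested.

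Whether replicate numbers pair the libraries could not be settled (correlations of same-numbered libraries 0.209, 0.099, -0.004 and 0.013). M5_O5 replicates 1 and 2 correlated most with the same number in M5. M5_O5 replicates 3 and 4 correlated most with M5 replicates 2 (0.206) and 1 (0.131). With the replicate block 18 members passed as higher and 2 as lower, beside 21.7% and 20.5% of all genes, and CYC1 passed (edgeR adjusted p = 0.0333). At 10 to 6448 counts per library and tested member, the depth limits the readthrough most.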
